A study of Sus scrofa with 35 samples.

Results

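The heat effect in blood of F1 crossbred pigs was described here from 12 of the 35 pigs of the study, 6 F1 pigs kept in thermoneutral (TN) conditions at 24 °C and 6 F1 pigs under heat stress (HS). These 12 were the pigs whose labels give the breed F1 and either temperature, and no measured value was used to choose them. F1 pigs were the cross between the Large White (LW) breed, a lean commercial pig, and the Creole (CR) breed, a local pig of the Caribbean. The sample labels give 30 °C for HS, while their protocol text and the methods of the study give 32 °C. The protocol text gives 5 d of heat and the methods 4 or 5 d, and the labels do not tell these pigs apart. All pigs were castrated growing males raised in Guadeloupe, each pig gave 1 sample of whole blood, and the TN pigs were slaughtered before the rooms were heated. Climate and day of slaughter therefore cannot be told apart, and pens and parents are not in the labels. The CR and LW pigs (11 and 12) were used to show where F1 pigs differed. They also entered the estimate of spread behind the F1 calls and the comparison of levels with array brightness.

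Whole blood taken into an RNA-preserving tube holds the messenger RNA of all circulating cells. Mature red cells have lost their nucleus, and the red cell RNA of such a sample comes mainly from reticulocytes, the youngest red cells, which still hold mRNA of globins, heme synthesis and membrane proteins until they clear it. The rest comes from neutrophils, monocytes, lymphocytes and platelets. In bulk samples of this kind, fewer cells of a type and less RNA per cell cannot be told apart. Heat is best known for its action on chaperones, the heat shock proteins (HSP), which hold or refold proteins that lose their shape.

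RNA was labelled with 1 dye and hybridised to an array with probes of 60 bases. A level is given as the log2 value of the normalized table, with the processed signal of the scanner software (arbitrary units, background subtracted, not normalized between arrays) where the brightness matters. Differences are log2 HS minus TN with their standard error (SE), and a probe or gene was said to rise or fall when its adjusted p (Benjamini-Hochberg over all probes or genes, limma) was under 0.05. A difference of 1 on this scale is 2-fold. Levels of different probes were not set against each other, since each probe binds with its own strength.

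The arrays of the groups differed in brightness. The 75th percentile of the processed signal was 112 to 186 on F1 TN arrays (median 152) and 172 to 266 on F1 HS arrays (median 249.7), and the share of probes well above background was 60.02% ± 3.35 (SD, n = 6) in TN and 65.1% ± 1.59 in HS. Both differences passed an exact two-sided permutation test (p = 0.00649 and 0.00866, each with an adjusted p of 0.0260 over 9 array measures). Quantile normalization makes the distribution of values alike on all arrays, so this difference in brightness is not visible in the log2 values. Slide and scan were the same thing, with both F1 groups on 4 slides. Defining markers of blood were well above background on all 12 F1 arrays, such as ALAS2 and CA1 of red cells and S100A8 of neutrophils.

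Of 39072 probes, 15108 (38.7%) differed between F1 HS and F1 TN. The values rose for 8109 probes (20.8% of all) and fell for 6999 (17.9%), with a median over all probes of 0.13. Large changes lay almost wholly on one side. A rise of 2-fold or more was called for 57 probes (0.146%) and a fall of 2-fold or more for 2195 (5.62%), and beyond 4-fold there were 2 rises and 140 falls. The table names a gene for 18 of the 57 rises (15 genes) and for 962 of the 2195 falls (784 genes). The changed probes were not dim ones. Of the 2-fold falls, 2167 were well above background on all 12 arrays, as were 48 of the 57 rises, and the median TN level was 9.55 for falls and 9.22 for rises against 7.12 for all probes. Values of HS and TN pigs did not overlap for 4560 probes (11.7%), among them 1600 of the 2-fold falls and 10 of the 2-fold rises.

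The counts changed when the brightness of the arrays entered the fit. With the log2 75th percentile of each array as a covariate, limma called 0 probes (5805 had an unadjusted p under 0.05). The differences of the named falls then went down in size, for example from -2.57 to -1.62 for NR1I2 (adjusted p = 0.156). The 2 lowest probes without a gene name changed less, from -2.92 to -2.56 and from -2.87 to -2.52. Rises were divided. IGHA went from 1.34 to 0.88 and DEGS1 from 1.29 to 0.72, while SLA-3 stayed at 1.39 (adjusted p = 0.175) and ALG14 was at 1.15 after 1.14. The percentile was 6.81 to 7.54 on the log2 scale in TN and 7.43 to 8.05 in HS, so brightness and climate were largely confounded in F1 pigs, and which of them the calls followed cannot be told apart. Within slides, 2161 of the 2195 falls were lower in HS on all 4 slides with both groups, and 34 of the 57 rises were higher on all 4. These probes were chosen on the difference between the same pigs, so the counts only describe them and are no separate check.

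**Figure D1:**
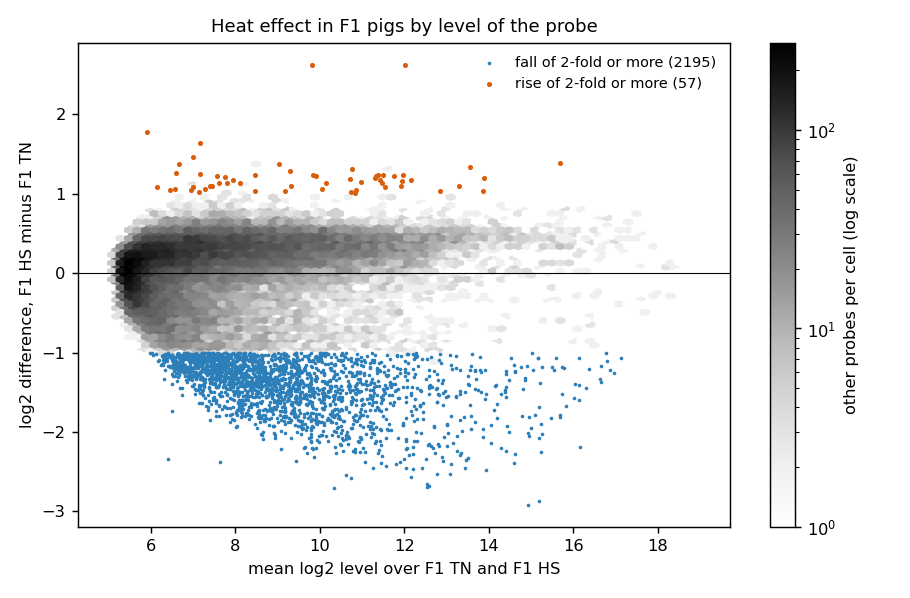
Log2 difference between F1 HS and F1 TN pigs (y axis) by the mean log2 level of the probe over both groups (x axis). Grey cells count the other probes on a log scale, orange points are the 57 rises and blue points the 2195 falls of 2-fold or more. The falls reach to -2.92 and cover nearly the whole range of levels, while few rises pass 1.5.

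Probe sequences are given here because many of the largest falls shared a feature of sequence, a run of 4 or more C. Not all of them held it. The longest run was 3 in the falling probes of CNGA2 and PITPNM2 and in the lowest probes without a gene name, which are not printed. Each line shows 30 of the 60 bases of a probe as printed in the scanner files, 5′ to 3′, with its longest run of C in capitals, for 4 genes whose probes differed in their change and for 3 whose printed probes all fell. The first probe of TCAP, RELA, PPARG and FAAH fell by over 2 on the log2 scale. Its pair fell less (FAAH), did not pass the test (TCAP and PPARG) or was called higher (RELA). The pairs had TN means of 6.06, 7.85, 6.46 and 6.79, and the dimmer ones had little room to fall.
TCAP, probe O8747: atggagCCCCCagcaccctctgttagcgct
TCAP, probe A_72_P342928: atttCagcttcggagaacaatgagaaaaaa
RELA, probe A_72_P269269: gtgctgtcacatCCCCCtgtgcctcttcct
RELA, probe O9322: taacactgaCCCgaccgtgttcacggacct
PPARG, probe O15024: tcaaacacatcaCCCCCCtgcaggagcaga
PPARG, probe A_72_P146711: acatgagccttcaCCCactcctacaggaaa
FAAH, probe with a run: tgactgcagtaaCCCCCtctttggccagac
FAAH, probe O6223: caaaaaCCggttcctggtctccatactttc
HBE1, probe A_72_P223877: ggcggagagttcaCCCCtgaagtgcaggct
HBE1, probe A_72_P104806: ctggggttcggCCttgagaacacagcttct
NR1I2: gacatacaCCCCttcgccaccccactcatg
ARG1, probe A_72_P057696: actgtatcaattCCCtcttggtgtgaaaat

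A run of 4 or more C (CCCC, read on the probe strand only) was present in 5922 of the 39072 probes (15.2%). It was present in 965 of the 2195 falls of 2-fold or more (44.0%), in 90 of the 140 falls beyond 4-fold (64.3%) and in 5 of the 57 rises (8.77%). The share of probes with a 2-fold fall went up with the length of the longest run of C, from 1.35% with a run of at most 1 to 12.7% with a run of 4, 20.8% with 5 and 46.3% with 6 or more. The medians went from 0.23 to -0.15, -0.47 and -0.93 over the same classes. The median TN level of these classes rose as well, from 6.87 to 7.52, 8.47 and 9.13. A dim probe has little room to fall, and the parts of run length and level were not tested. Runs of G, the reverse complement, gave smaller differences. With GGGG a 2-fold fall was called for 4.74% of probes and without it for 5.74%, but with 6 or more G it was called for 9.06%, and the medians went from 0.16 with a run of 3 to -0.22 with 6 or more. Among all 6-base words held by at least 50 falls, CCCCCC stood out most, followed by CACCCC and then by ACCCCC. A probe holding CACCCC fell 2-fold or more in 37.8% of cases against 5.15% of the others. These words overlap the run of C, and the shares describe the probes without a test. The same feature moved less in the other breeds, in which the median of probes with CCCC was -0.10 (CR) and -0.04 (LW), against -0.25 in F1.

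**Figure D2:**
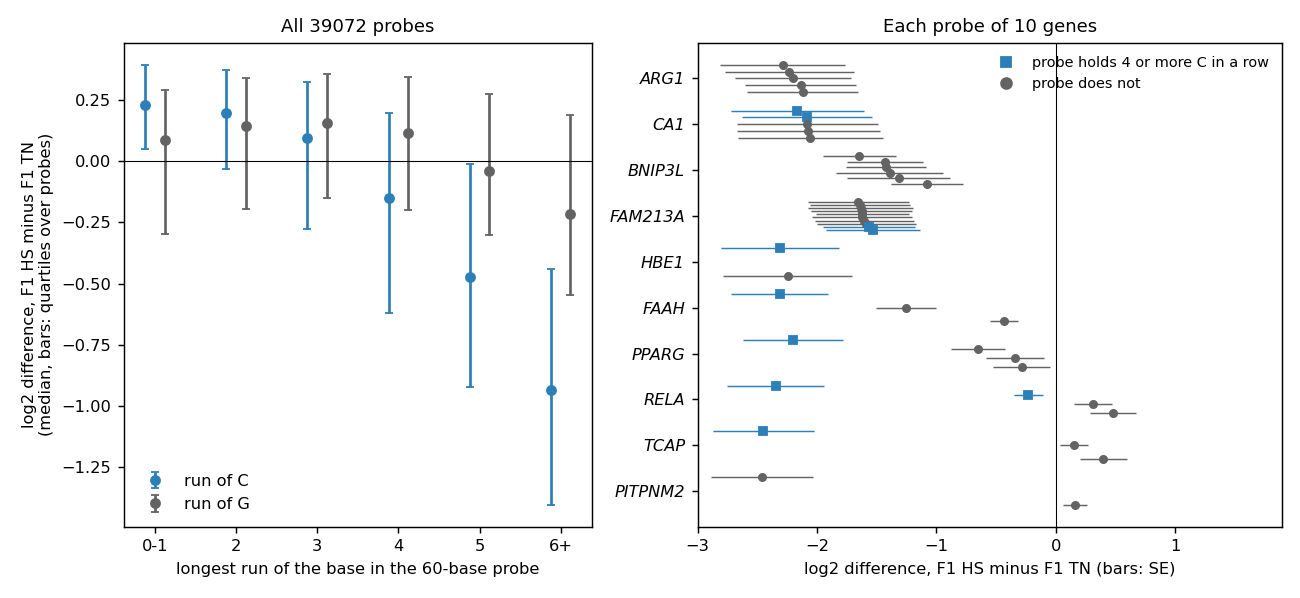
Left, median log2 difference between F1 HS and F1 TN pigs (y axis, bars from the lower to the upper quartile over probes) by the longest run of C (blue) or G (grey) in the probe (x axis). The median for C goes down from 0.23 to -0.93, and that for G from 0.09 to -0.22. Right, log2 difference with its SE (x axis) of each probe of 10 genes, with blue squares for probes holding 4 or more C in a row. All probes of ARG1, CA1, BNIP3L and FAM213A lie below -1, while those of RELA, TCAP and PITPNM2 are split.

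Other probes of the same gene gave a second reading of each named fall. For the 353 named falls whose probe held CCCC, 159 had another probe of the same gene without the run, and the median difference of those other probes was 0.06, with 20 (12.6%) at or below -1. For the 609 named falls without CCCC, 365 had such a probe, and the median was -0.91, with 167 (45.8%) at or below -1. Of 402 genes with at least 2 probes and at least 1 fall of 2-fold or more, every probe fell in 125 and at least 1 probe was higher in HS in 199. Other probes of a gene are therefore given beside the named one. Their level was not taken into account in these counts, and a probe near the lower end of the scale has little room to fall. Sequence of the transcripts was not analysed here, and the part of the run of C in these differences was not tested.

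The 12 named probes with the largest rise stood for products of the immune system first. SLA-5 and SLA-3 code for heavy chains of swine MHC class I, which shows peptides to cytotoxic T cells, and IGHA codes for the constant part of the IgA heavy chain. The SLA-3 probe was at 13.77, 14.78 and 16.23 (lowest, median and highest) in TN and at 15.52, 16.42 and 17.16 in HS. It rose by 1.39 ± 0.38 (adjusted p = 0.00519), from a mean processed signal of 34704 ± 26256 to 101459 ± 26267 (SD, n = 6). The groups overlapped, and 7 of 8 SLA-3 probes were called higher.

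The SLA-5 probe ran from 5.80 over 8.95 to 11.75 in TN pigs and from 9.96 over 11.19 to 11.97 in HS pigs, a rise of 2.62 ± 0.86 (adjusted p = 0.0174). The TN pigs covered most of the range by themselves, and without TN pig 3 (2.20, adjusted p = 0.0512) or TN pig 4 (2.08, adjusted p = 0.0630) the rise was no longer called. Its other probe rose by 0.85. A probe that the files name HLA-B, after the human class I gene, rose by 1.09 ± 0.25 (adjusted p = 0.00148), with 1 TN pig inside the HS range. An unnamed probe described as class I MHC rose by 2.63 ± 0.99 (A_72_P625729, adjusted p = 0.0354), a call that was lost without any 1 of 5 pigs (TN pigs 3, 4 and 5, HS pigs 5 and 6) and had an adjusted p of up to 0.107. Class I genes are near-identical copies, and hybridisation to one cannot be told apart from hybridisation to another or from an allele. In CR and LW pigs the SLA-3 probe differed by -0.95 and -0.15, and neither difference to F1 passed the test (adjusted p = 0.398 and 0.122).

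IGHA was at 11.92, 12.90 and 13.65 in TN pigs and at 13.78, 14.08 and 15.15 in HS pigs. All 6 HS pigs were above all 6 TN pigs, the rise was 1.34 ± 0.35 (adjusted p = 0.00406), and each of its 3 probes rose 2-fold or more. OASL, an interferon-induced protein, did not overlap either, at 6.20, 7.08 and 7.40 in TN against 7.52, 7.84 and 9.17 in HS. Its named probe rose by 1.23 ± 0.30 (adjusted p = 0.00241), from a mean signal of 90.4 to 405, and its second probe was called as well. No other gene on a list of interferon-stimulated genes was called higher, though the median of the list was 0.32 against 0.11 over all genes. Of its 33 measured genes, OASL alone passed the test as a rise and 1 fell, IFIT1, whose 3 probes all fell (mean of the gene -1.45 ± 0.37, adjusted p = 0.00268).

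The other named rises had varied functions. DEGS1, which makes the double bond of ceramide, rose by 1.29 ± 0.35 (adjusted p = 0.00527), with all 3 probes called. ALG14, part of the enzyme that adds the second sugar in N-glycosylation, rose by 1.14 ± 0.26 (adjusted p = 0.00158), from 6.42, 7.34 and 7.70 to 7.84, 8.47 and 8.78 without overlap. CYR61, a secreted matrix protein of wounded tissue, rose by 1.10 ± 0.19 (adjusted p = 0.000211) without overlap, from a signal of 75.2 ± 33.1 to 294 ± 65.6 (SD, n = 6). Its probe holds a run of 4 C. NOP14, a factor in processing of the small ribosomal subunit, lay just inside 2-fold at 1.01 ± 0.29 and did not overlap, and it was higher by 1.02 in CR pigs and 0.51 in LW pigs. FDPS, an enzyme of the cholesterol pathway, lay just outside at 0.99 ± 0.19, with 3 of 3 probes called.

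Not every rise was shared by the pigs of the group. B4GALT1, a galactosyltransferase, was at 6.73 to 12.22 in HS with a median of 6.96, against 5.99 to 6.85 in TN. HS pig 3 alone held the high value. Without it the difference was 0.36 in place of 1.24 and was still called (adjusted p = 0.0478). The call of this probe was lost without any 1 of the 6 TN pigs (adjusted p up to 0.0987). The other B4GALT1 probe, brighter with a TN mean of 11.14, rose by 0.37 ± 0.13 (adjusted p = 0.0240). CYS1, a protein of the primary cilium, rose by 1.10 ± 0.39 (adjusted p = 0.0276) with overlapping groups, and lost its call without any 1 of 5 pigs (TN pigs 1, 3 and 4, HS pigs 5 and 6; adjusted p up to 0.0948). MAP7D1, a microtubule-binding protein, rose by 1.05 ± 0.39 (adjusted p = 0.0318) on 1 probe, while its other probe was at -0.01. The call was lost without any 1 of 6 pigs (TN pigs 3, 4 and 5, HS pigs 1, 5 and 6; adjusted p up to 0.103).

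For probes well above background on none of the TN arrays and all 6 HS arrays the fold is only a bound. There were 21 named probes of this kind and 0 of the reverse. The flag is set on signal that is not normalized between arrays, and the HS arrays were brighter. Their share of probes well above background was 65.1% against 60.02% in TN, so the uneven count cannot be told apart from brightness. The probes were also chosen by these flags on the same arrays, so their adjusted p is no separate support. The 3 given here were ZC3H14, higher by at least 1.21-fold (adjusted p = 0.0409), RASGRP3, by at least 1.20-fold (adjusted p = 0.0102), and TPMT, by at least 1.17-fold with an adjusted p of 0.0591. The 4 probes of RASGRP3 were divided, with 3 called higher and 1 called lower, at -0.74. Of 6 ZC3H14 probes 3 were called higher and 0 lower, and of 2 TPMT probes 0 were called.

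**Figure D3:**
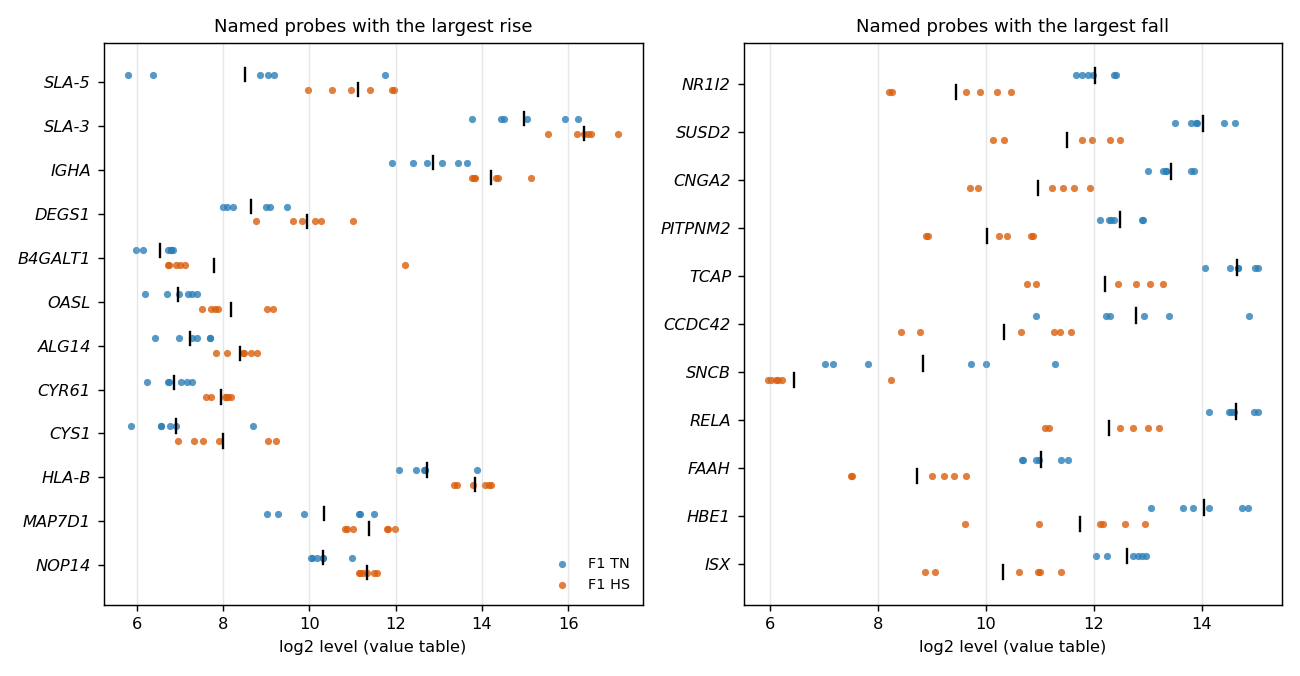
Log2 level (x axis) of the named probes with the largest rise (left) and the largest fall (right), with 1 point for each of the 6 F1 TN pigs (blue) and 6 F1 HS pigs (orange) and a black bar at each group mean. IGHA, OASL, ALG14, CYR61 and NOP14 do not overlap among the rises. The size of the B4GALT1 rise rests on 1 pig, and 2 HS pigs are lowest in most of the falls.

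The named probes with the largest fall were a mixed group. HBE1 codes for the embryonic β-like globin chain of red cells. Others are known from tissues far from blood, such as NR1I2 (the nuclear receptor of foreign compounds in liver), CNGA2 (the ion channel of olfactory neurons), TCAP (a sarcomere protein of muscle), SNCB (a synuclein of neurons) and ISX (an intestinal homeobox factor). The largest was NR1I2, at 11.68, 11.94 and 12.41 in TN and 8.21, 9.76 and 10.46 in HS. It fell by 2.57 ± 0.45 on the log2 scale (adjusted p = 0.000211), which is 5.95-fold. Its groups did not overlap, and the processed signal went from 3250 ± 756 to 951 ± 502 (SD, n = 6). HS pigs 5 and 6 were lowest for most of these probes, and their arrays also had the highest 75th percentile of signal (265.3 and 265.8).

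HBE1 fell by 2.31 ± 0.49 (adjusted p = 0.000823), from 13.06, 13.98 and 14.86 to 9.61, 12.14 and 12.96 without overlap. Of the HBE1 probes printed above, the one with 4 C gave -2.31 and the one with 2 C gave -2.24. SUSD2, a membrane protein of the cell surface, fell by 2.52 ± 0.44 on a probe with a run of 4 C, and its mean signal went from 14752 to 4414.

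For several of the others a second probe fell less or did not fall. These other probes had TN means of 5.43 and 6.06 for TCAP, 5.48 for PITPNM2, 6.43 to 7.85 for RELA, 6.46 to 7.53 for PPARG and 6.79 and 8.47 for FAAH. The dimmer TCAP one and that of PITPNM2 were well above background on only 3 of 6 TN arrays. Near the lower end of the scale a fall of this size could not show in full. This limit does not cover all of them. The RELA probe at 7.85 and the FAAH probe at 8.47 were above the median TN level of 7.12 over all probes. The TCAP probe with a run of 5 C fell by 2.45 ± 0.43, from 14.05, 14.66 and 15.04 to 10.76, 12.61 and 13.29, with differences of 0.15 and 0.40 at the gene's other probes. RELA, the p65 subunit of NF-κB, fell by 2.35 ± 0.41 on its probe with a run of 5 C, with -0.23, 0.31 and 0.48 at the other probes. The last of these was called higher (adjusted p = 0.0462). PPARG, a lipid-sensing nuclear receptor printed above after its values were seen, fell by 2.20 ± 0.42 on the probe with 6 C and by 0.65 on another (adjusted p = 0.0251), and differed by -0.34 and, on the second one shown, by -0.29 without passing the test. FAAH, which breaks down endocannabinoids, fell by 2.31 ± 0.40 with a run of 5 C and was at -1.26 and -0.43 on its other probes. PITPNM2, a phosphatidylinositol transfer protein, split as well (-2.46 ± 0.43 and 0.16) though neither probe has a run of 4. ISX (-2.30 ± 0.42) and CNGA2 (-2.47 ± 0.42) are read by 1 probe each.

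SNCB was at 7.01, 8.77 and 11.28 in TN and close to the lower end of the scale in HS, at 5.97, 6.13 and 8.25. It fell by 2.38 ± 0.64 with overlapping groups, and its other probe differed by -0.16 from a TN mean of 5.63, near the lower end of the scale. CCDC42, a coiled-coil protein of sperm, fell by 2.43 ± 0.68 with overlapping groups, and both its probes fell. Without regard to names, the lowest value over all probes was -2.92 ± 0.53, for a probe with no gene name, followed by -2.87 ± 0.53 for a probe described as peptide YY (A_72_P116571), a hormone of gut. At the 2-fold limit, the SLC47A2 probe was just inside at -1.0001 ± 0.22, and the PCSK1N probe was just outside at -0.9999 ± 0.19.

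Genes whose probes all fell were a mixed group that included several of the red cell. Of 1848 genes with at least 3 probes, 35 had every probe called lower and a mean at or below -1, and 16 of these had no CCCC in any probe. ARG1, the arginase of the urea cycle that neutrophils of some species also store, fell on 5 of 5 probes. Its mean level went from 11.69, 13.04 and 13.93 in TN to 9.10, 11.11 and 11.55 in HS, a difference of -2.19 ± 0.49 (adjusted p = 0.00103). CA1, the second most abundant soluble protein of red cells, fell on 5 of 5 probes, from 10.47, 11.44 and 13.45 to 7.66, 10.26 and 10.62 (-2.09 ± 0.58, adjusted p = 0.00521). All of 10 FAM213A probes fell, with a mean of -1.61. Further members, chosen like FAM213A after their values were seen, were NCOA4 (4 probes, mean -1.67), which delivers ferritin iron for heme synthesis, DMTN (4, -1.59) and AQP1 (3, -1.28) of the red cell membrane, BNIP3L (6, -1.38), which clears mitochondria from reticulocytes, and MXI1 (9, -1.55). Others of the 35 are not known as red cell genes, such as ATP4B (3, -1.76), CLPS (3, -1.68), LHB (4, -1.20) and HCRT (3, -1.13).

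Lists of genes by function were then read on gene means, over 9655 genes of which 4283 (44.4%) were called, 2393 up (24.8%) and 1890 down (19.6%), with a median of 0.11. A fall of 2-fold or more was called for 483 genes (5%) and a rise of 2-fold or more for 9 (0.0932%). The red cell lists held more falls than rises. Of 15 measured erythroid cell genes 8 fell and 0 rose, with 6 of the 8 falling 2-fold or more and a median of -0.95. Of 19 genes of the red cell membrane and skeleton 9 fell and 2 rose (median -0.58), of 17 heme synthesis genes 7 fell and 0 rose (-0.50), of 14 erythroid transcription factors 7 fell and 0 rose (-0.45), and of 19 genes of red cell maturation 13 fell and 1 rose (-0.86). Without probes holding CCCC the falls were 6 of 13, 7 of 18, 7 of 15, 5 of 11 and 12 of 19. Over all 8634 genes of that fit, 14.8% fell and 26.5% rose. With the 75th percentile as a covariate, no gene of any list was called.

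Within heme synthesis the falls covered several steps. ALAS2, the erythroid enzyme of the first step, was at 9.998, 10.33 and 10.83 in TN and at 7.95, 9.01 and 9.76 in HS, a difference of -1.40 ± 0.29 (adjusted p = 0.000648) without overlap. ALAD (-1.50 ± 0.38), the enzyme of the next step, and UROD (-1.41 ± 0.28), of a later one, fell by like amounts. Among membrane genes, RHCE of the Rh blood group (-1.94 ± 0.58) and EPB42 (-1.76 ± 0.31, on a probe with CCCC) fell as well. Regulators of the lineage that fell were GFI1B (-1.02 ± 0.19) and FOXO3 (-1.14 ± 0.27), besides SOX6 (-1.92) and GATA2 (-1.36), which were read by probes with the run of C.

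Genes of red cell maturation fell as well. BNIP3L was at 11.41, 12.25 and 13.09 in TN and at 9.99, 10.94 and 11.37 in HS, a difference of -1.38 ± 0.32 (adjusted p = 0.00161), and ATG4A, of autophagy, fell by 1.67 ± 0.36. PRDX2, the peroxiredoxin of red cells, fell by 1.17 ± 0.27 (adjusted p = 0.00148), and BLVRB (-1.52) and CA2 (-1.40) fell too. The adult globin chain HBB differed by only -0.22 (adjusted p = 0.239). KLF1, the erythroid master regulator (-0.86, adjusted p = 0.135), and AHSP, the chaperone of α-globin (-0.46, adjusted p = 0.0983), did not pass the test. The list of red cell enzymes was divided, with 7 falling and 6 rising of 22, and of 18 genes of iron uptake and storage 5 fell and 0 rose (median -0.06).

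As an array measure, the mean of the erythroid cell genes differed by -1.16 (9.86, 10.70 and 11.87 in TN, 8.56, 9.76 and 10.22 in HS, exact two-sided permutation p = 0.00866, adjusted p = 0.0260 over 9 measures). Their summed processed signal overlapped between groups, at 296811 to 551178 in TN and 247660 to 476120 in HS.

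Of the white cell lists, those of T cells and B cells held rises and no falls. Among T cell genes 6 of 12 rose and 0 fell (median 0.36), led by CD247, the zeta chain of the T cell receptor (0.81 ± 0.26, adjusted p = 0.0150), CCR7 (0.72), CD5 (0.70) and CD3D (0.64). Of 11 B cell genes 4 rose and 0 fell (median 0.49). The array means of both lists were higher in HS by 0.44 and 0.46 (exact permutation, adjusted p = 0.0312 and 0.0292). MHC class II genes rose in 6 of 14 with 1 fall (median 0.40), and SLA-DQB1, a class II β chain, rose on all 4 probes (0.78 ± 0.17, adjusted p = 0.000774). Neutrophil genes fell in 3 of 16 (median -0.36), 2 of them 2-fold or more, ARG1 and ELANE (-1.09). Monocyte genes (1 up and 2 down of 11) and platelet genes (0 of 12, median 0.37) gave few or no calls. Cytotoxic cell genes fell in 3 of 15, NCR3, TBX21 and GNLY, each read only by probes with CCCC, and 0 of the 10 genes read without such probes were called. Over all 8634 genes read without such probes, 26.5% rose and 14.8% fell.

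Chaperones rose in moderate steps and none of these rises reached 2-fold. Of 13 genes of HSP90 and its co-chaperones 7 rose and 0 fell (median 0.32), of 27 HSP40 genes 13 rose and 2 fell (0.19), and of 24 genes of protein folding and the unfolded protein response in the endoplasmic reticulum 14 rose and 2 fell (0.37). HSPA5 (BiP), the main chaperone of that compartment, was at 9.51, 9.63 and 9.83 in TN and at 9.95, 10.10 and 10.26 in HS, a rise of 0.45 ± 0.08 (adjusted p = 0.000244) without overlap on 3 of 3 probes. HSP90B1 rose on 9 of 9 probes (0.59 ± 0.18, adjusted p = 0.00914), as did HYOU1 (0.56), PDIA6 (0.76) and MANF (0.65) as genes. The stress factor DDIT3 (CHOP) (-0.65) and the sensor ERN1 (-1.56) fell.

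Several cytosolic chaperones did not pass the test. HSP70.2 was at 0.20 (adjusted p = 0.436), HSPH1 at 0.16 (0.397) and HSPA8 at 0.29 (0.265), while HSP90AA1 rose by 0.32 (adjusted p = 0.0297). Of 11 genes of HSP70 and HSP110, among them HSPA5 of the endoplasmic reticulum, 2 rose and 0 fell. Among chaperonins and small HSPs 6 rose and 4 fell of 15. CRYAB (-1.63) and BAG4 (-1.31) were among those that fell, each read by 1 probe with the run of C, as was HSF1 (-0.70), the transcription factor of the heat shock response. Without such probes the count was 6 up and 1 down of 12, against 26.5% up and 14.8% down over all genes of that fit.

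Several lists of protein synthesis and energy held more rises than falls. Of 38 genes of ribosome biogenesis 24 rose and 2 fell (median 0.35), of 53 mitochondrial ribosomal proteins 29 and 5 (0.35), of 60 translation factors and tRNA synthetases 27 and 3 (0.25), and of 38 proteasome subunits 19 and 5 (0.27). Examples were DKC1 (0.58) and GNL2 (0.59) of the nucleolus. CARS, the cysteine tRNA synthetase, went the other way and fell by 2.04 ± 0.37. Glycolysis genes rose in 10 of 25 with 0 falls (median 0.29), among them ENO1 (0.65), oxidative phosphorylation in 16 of 43 with 4 falls (0.13, close to 0.11 over all genes), among them COX5A (0.96), and the lysosome in 18 of 43 with 4 falls (0.25), among them CTSZ (0.71) and HEXA (0.69).

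The balance of cytosolic ribosomal proteins depended on the scaling. In the main fit 17 of 68 rose and 5 fell with a median of 0.02. Over all genes 24.8% rose and 19.6% fell, with a median of 0.11. Scaling on the 75th percentile gave 6 up and 7 down with -0.09, against 22.6% up and 20.6% down over all genes. Antioxidant enzymes were even, with 5 up and 5 down of 30. Few genes were called among toll-like receptors and inflammatory cytokines (5 up and 3 down of 34), glucocorticoid receptor and targets (2 and 1 of 15) and the cell cycle (2 and 2 of 31).

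**Figure D4:**
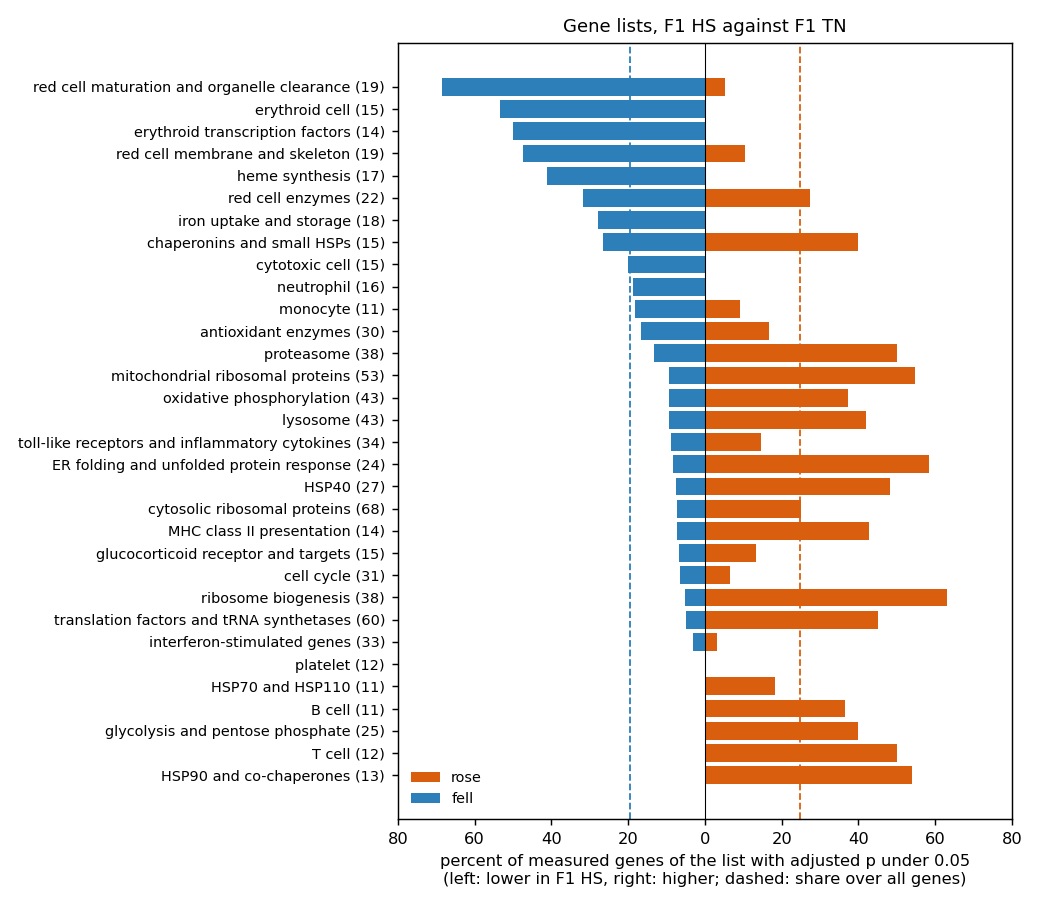
Percent of the measured genes of each list (number in brackets) that rose (orange, right) or fell (blue, left) in F1 HS against F1 TN, with dashed lines at the shares over all 9655 genes (24.8% up, 19.6% down). The red cell lists pass the blue line and, apart from red cell enzymes, have short orange bars or none, and ribosome biogenesis, the endoplasmic reticulum and HSP90 lists pass the orange line.

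Most probes with a 2-fold fall in F1 were also lower in HS in the parental breeds, with a smaller median. Over the 2195 probes with a 2-fold fall in F1, which were chosen on the F1 difference, the median was -1.33 in F1, -0.55 in CR and -0.29 in LW. Of these probes 98.7% were lower in HS in CR and 98.2% in LW, against 43.9% and 47.3% of all probes. NR1I2 differed by -0.87 in CR and -0.78 in LW. The erythroid list had a median of -0.48 in CR and -0.26 in LW. Of the 57 rises, 51 were higher in CR and 45 in LW. SLA-5 and SLA-3 were lower in both, with SLA-5 at -0.32 in CR and -0.78 in LW.

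No probe was called in the other breeds. Limma called 0 (0%) in CR (3466 at an unadjusted p under 0.05, lowest adjusted p 0.557) and 0 (0%) in LW (3404, 0.563). The difference between heat effects was not called for any probe either, with 0 (0%) for F1 minus CR (4629 at an unadjusted p under 0.05, lowest adjusted p 0.398) and 0 (0%) for F1 minus LW (8874, 0.122). Fitted with array weights, F1 minus LW called 3902 probes.

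The falls went with the brightness of the array also in the CR and LW pigs, whose levels did not enter the F1 difference. Over the 23 CR and LW pigs, the mean of the falls with CCCC and the log2 75th percentile had a Pearson r of -0.656 (permutation p = 0.00068) and a Spearman rho of -0.629 (p = 0.0017), and r was -0.687 without the 2 pigs farthest from the median percentile. For the falls without CCCC r was -0.679 (p = 0.00043, rho -0.629), and for the mean of the erythroid genes -0.536 (p = 0.00863, rho -0.463). With each group set to its own mean the 3 values were -0.737, -0.773 and -0.570, and with each slide set to its own mean they were -0.667, -0.670 and -0.539. Single slides held 3 to 5 of these pigs, too few for a test, and r within them was -0.925 to -0.388 for the falls with CCCC, -0.941 to -0.317 for those without and -0.836 to 0.231 for the erythroid genes. Within the CR and LW groups of 5 or 6 pigs r was -0.894 to -0.386, -0.879 to -0.334 and -0.730 to 0.284. The erythroid relation therefore did not hold in slide 2 (0.231), slide 3 (0.00909) or LW HS pigs (0.284). In the 12 F1 pigs, set to their group means, r was -0.568, -0.674 and -0.478. Between climates the mean 75th percentile was alike in CR (227.8 in TN, 224.7 in HS) and LW (203.7 and 202.1). The falls with CCCC had means of 9.60 in TN and 9.01 in HS in CR, and of 9.62 and 9.30 in LW. Those without CCCC were at 9.21 and 8.67 in CR, and at 9.23 and 8.92 in LW. The parts of brightness and climate in these levels were not tested.

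**Figure D5:**
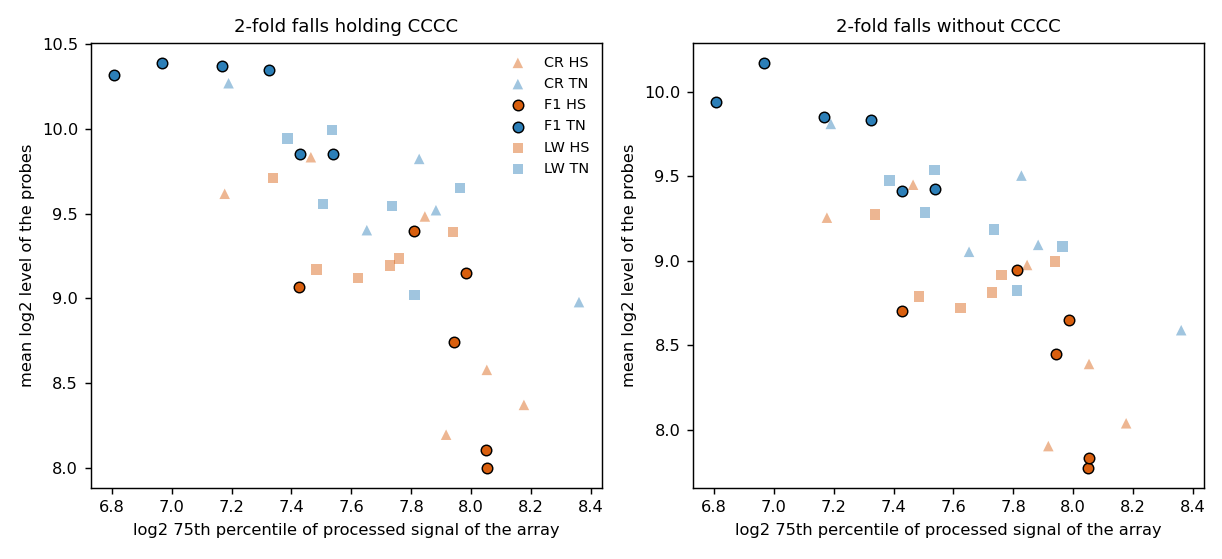
Mean log2 level of the 2-fold falls with (left) and without (right) CCCC (y axis) by the log2 75th percentile of the processed signal of the array (x axis), with 1 point for each of 35 pigs. F1 pigs are outlined, TN is blue and HS orange, triangles are CR and squares LW. F1 TN pigs lie at the upper left and 5 of 6 F1 HS pigs at the right, and CR and LW pigs lie along the same slope.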

How the data were processed

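Whole blood RNA of 35 pigs was read on one-colour arrays with Feature Extraction 10.10.1.1. The authors deposited a table of log2 values, quantile-normalized between arrays and filtered to 39072 probes, and the scanner files with spot intensity, processed intensity and flags. Values recomputed from the deposited median intensity had a Pearson correlation of at least 0.99987 per array with the table.

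Probes were named by the files' symbols where a pig gene table held them (16535), by older symbols (499), by accession (364) or as in the files (1076), and 20598 stayed unnamed. Limma 3.58.1 in R 4.3.3 fitted 6 group means over all 35 arrays, per probe and per gene (mean of its probes), with Benjamini-Hochberg adjustment. Named probes were the 12 largest called rises and falls of 2-fold or more with distinct symbols, well above background on all 12 F1 arrays, up to 4 called genes of each list, up to 3 with only a bound, up to 2 unnamed in each direction, and those next to the 2-fold limit. List members that missed the test could be named with their values. A few named genes are not reported here, and list counts include them. On simulated data 42 of 50 probes set to fall 2-fold and 41 of 50 set to rise 2-fold were recovered.

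Replicate numbers follow the order of the records. P-values measure the spread between pigs and the number of arrays limits precision. The study used littermates and shared pens, and the tests here treated the pigs as independent. Members and lists were chosen with earlier results of these data known.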

Additional observations from a re-analysis of the deposited data

Results flagged for a closer look

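In 6 of 86 groups of 6 F1 pigs tested, 1 pig stood apart from the others, where chance alone gives about 1 in 20. For B4GALT1 it was HS pig 3 at 12.22. For SNCB it was HS pig 4 at 8.25, above the others of its group. Among TN pigs, pig 6 was high for CYS1 (8.70) and for HLA-B (13.89), pig 5 was high for NOP14 (10.99), and pig 1 stood apart for RASGRP3 (4.98).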

How the results depend on the processing

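With the log2 75th percentile as a covariate the counts were 0 probes, 0 genes, 0 rises and 0 falls of 2-fold or more. With the mean of the erythroid genes, themselves among the genes tested, as a covariate they were 184 probes, 57 genes, 13 rises and 51 falls. Scaling on the 75th percentile in place of quantile normalization gave 433 rises, 4656 falls and 1 probe for F1 minus LW, and array weights gave 3902 for F1 minus LW. Without probes holding CCCC, an alternative chosen after seeing the data, 1227 falls were left of 33150 probes tested, and the share of rises among calls went from 53.7% to 62.6%. The causes were not tested. The other alternatives (normexp, recomputed quantile values, both filters, slide as a fixed or random block, F1 pigs alone) stayed within 1.5 times of each count. Leaving out 1 pig gave 11504 to 16478 probes, 3420 to 4424 genes, 1774 to 2529 falls and 38 to 161 rises, with 161 without TN pig 6, 106 without TN pig 5 and 86 without HS pig 4, and 0 to 0 for the differences between breeds. Over the same settings the log2 75th percentile differed by 0.59 to 0.76, the share above background by 4.11 to 5.85 percentage points, and the list means by -1.34 to -0.94 (erythroid), -0.67 to -0.28 (neutrophil), -0.12 to 0.036 (monocyte), 0.38 to 0.52 (T cell), 0.37 to 0.53 (B cell), -0.29 to -0.15 (cytotoxic) and 0.16 to 0.62 (platelet). The erythroid, T cell and B cell means lost their call in 3, 7 and 4 of these. Directions turned for NFKBIA (-0.038) and FUT4 (0.033) with the percentile, for DNAJB2 (0.042), CAT (0.18), CDKN2C (0.025), MRC1 (0.047) and CA2 (0.35) with the erythroid mean, and for RELA (0.39) without CCCC. No analysis by litter or pen was possible because the labels do not give them.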

Other observations

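Genes of sterol and fatty acid synthesis were looked up after values of FDPS had been seen, so they are a description. Of 11 probes of SCD, the desaturase that makes oleic acid, 10 were called higher in F1 HS, at 0.41 to 0.91. Both probes of MVK (0.90 and 0.94), both of ACACA (0.64 and 0.49) and all 3 of FDPS (0.60 to 0.99) were called higher. FASN was called on 3 of 4 probes and SQLE on 2 of 4, while LSS (0.10) was not called. Probes of SREBF1, a transcription factor of these genes, were divided, at -1.96, -0.20 and 0.82, as were those of SREBF2 at -1.21 and 0.71.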
